A study of Mus musculus with 8 samples.

Results

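The 7 genes described here, which build, modify, trim, anchor or sense collagen and basement membrane, were followed in hearts of mice without Mfap4. They are Col5a3, Plod1, Plod3, P3h2, Pcolce, Lama5 and Ddr2. Of these, 6 were taken by the identifier of their cDNA clone on the array, and Ddr2 by the accession printed beside its clone, which gave 7 clones with 1 spot each among 20160 clones on 20205 spots. The clones of Col5a3, Pcolce, Plod3 and Ddr2 carry a RefSeq transcript accession, and those of Plod1, P3h2 and Lama5 carry older accessions that RefSeq lists as synonyms of these genes. The arrays named 1387 genes in all. Spots that the image analysis had flagged were kept, and the flags of the 7 genes are given with their values.

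The hearts came from 4 male MFAP4-/- mice of the C57BL/6N background, 19 weeks old. RNA of each mouse was hybridised to 2 spotted cDNA arrays against 1 pool of heart RNA from male wild-type C57BL/6N mice of the same age, with the dyes exchanged, for 8 arrays in all. A Cy5 array or a Cy3 array is named by the dye that carried the knockout RNA. MFAP4, the missing protein, is a matrix glycoprotein that the study examined as an integrin ligand in vascular remodelling. The pool is described as 6 control animals in the labelling protocol and as 4 mice in the channel labels, and no control mouse was hybridised singly, so the spread between control mice is not in any test.

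Collagen chains are made in the endoplasmic reticulum, where lysyl hydroxylases and prolyl hydroxylases modify them before the chains wind into a triple helix. After secretion the ends of fibrillar procollagen are cut off by metalloproteinases, helped by an enhancer protein, and the trimmed molecules assemble into fibrils. Basement membranes are thin sheets of laminin, type IV collagen and associated proteins that surround heart muscle cells and underlie vessel endothelium. Cells sense collagen through integrins and through discoidin domain receptors, which are tyrosine kinases.

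The signals of these genes were low. A spot was counted as above background where its median exceeded 2 times the local background of the same channel. By this measure Pcolce was above background on 6 of 8 arrays in the channel with knockout RNA and on 4 in the channel with the pool. It was the 1 gene of the 7 above background on at least 5 arrays with knockout RNA, as were 13.4% of all clones. Lama5 reached it on 3 arrays in the knockout channel and on 0 in the pool channel, and Col5a3 and Plod3 on 1 and 0. Plod1, P3h2 and Ddr2 were not above background on any array in either channel, as were 57.0% of all clones. No spot of the 7 genes was saturated. Flags stood on 6 of their 56 spots, all on arrays of mice 3 and 4: Plod3 was flagged on all 4 of those arrays, and Plod1 and P3h2 on 1 each. The arrays of mice 1 and 2 carried no flags on any spot. On the log2 scale the brightness of the Pcolce spot ranked at the 92.1st percentile of all clones and that of the Plod3 spot at 21.6.

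**Figure D1:**
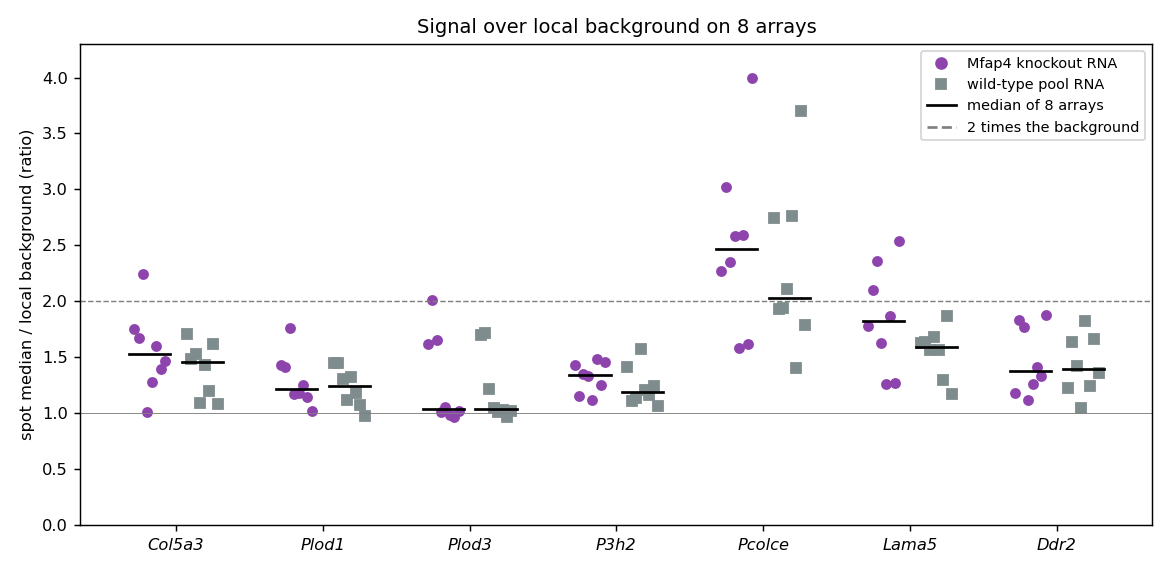
Median intensity of each gene's spot divided by its local background, on 8 arrays, with knockout RNA as circles and wild-type pool RNA as squares, in the channel that held each RNA; black bars are medians and the dashed line is 2 times the background. Pcolce had medians of 2.47 with knockout RNA and 2.03 with pool RNA, while the Plod3 spot lay at 1.03 and 1.04.

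No clone was matched to Mfap4 itself, so the knockout was not checked on these arrays. Heart muscle RNA was visible on the arrays. Of 19 heart muscle markers 2 were named on the array, Mybpc3 and Myom2, which encode proteins of the thick filament and the M line, and both exceeded 2 times the background on all 8 arrays in both channels. Across all spots, between 8.92% and 35.9% per array exceeded it in the knockout channel and between 4.65% and 17.1% in the pool channel. The 45 clones spotted at 2 places differed between their spots by a median of 0.199 in log2 ratio on the same array. Dye-swapped arrays of 1 mouse correlated across clones at r from -0.26 to -0.024, while arrays of different mice with the same dye orientation correlated at 0.11 to 0.42; clones are not independent replicates.

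The question the arrays address here is whether heart RNA of these genes differs without Mfap4. Values are log2 ratios of knockout over pool, averaged over the 2 arrays of each mouse, on a scale that an added offset of 50 intensity units compresses for dim spots. In limma's test of the 4 mice against 0, 0 of the 7 genes passed an adjusted p of 0.05, as did 0 of 20160 clones (0%). At an unadjusted p under 0.05 stood 1 of the 7, Pcolce, against 1569 of all clones (7.78%). Like Pcolce, 4.62% of all clones had both such a p and a log2 ratio below 0. The median log2 ratio of the 7 was -0.010, against -0.0037 over all clones, with 3 genes above 0 and 4 below. In whole hearts, fewer cells of a type and less RNA per cell cannot be told apart.

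**Figure D2:**
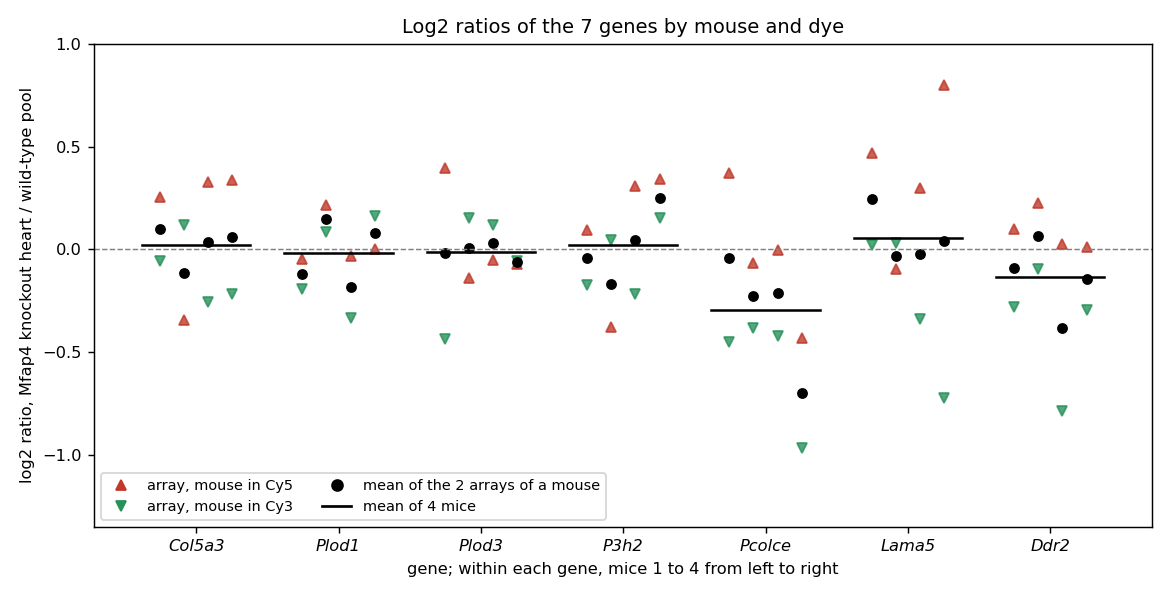
Log2 ratios of knockout heart over wild-type pool for the 7 genes, with mice 1 to 4 from left to right within each gene; triangles are single arrays (pointing up for Cy5 arrays, down for Cy3 arrays), circles the mean of a mouse and lines the mean of 4 mice. Pcolce is below 0 in 4 of 4 mice, and the other genes lie on both sides of 0.

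Col5a3 (Entrez gene 53867) encodes a chain of type V collagen, a minor fibrillar collagen that assembles together with type I collagen. Its log2 ratios in mice 1 to 4 were 0.0997, -0.11, 0.035 and 0.060. Only mouse 2 lay below 0, and the 4 mice differed by less than those of most clones of like brightness (SD 0.093, at percentile 8.33 within its band of 2016 clones of like brightness). Beneath this narrow range the arrays of each of the 4 mice had opposite signs. In mice 1 to 4 the Cy5 arrays stood at 0.25, -0.35, 0.33 and 0.34. The Cy3 arrays stood at -0.055, 0.12, -0.26 and -0.22. The mean was 0.020 ± 0.083 (SE, n = 4 mice; limma adjusted p = 0.966), with a 95% confidence interval from -0.17 to 0.21. Its knockout signal was above background on 1 array, so no fold is given. On that Cy3 array, of mouse 2, the spot medians were 309 with knockout RNA over a background of 138, and 350 with pool RNA over 229. On the other array of this mouse they were 177 over 175 with knockout RNA and 251 over 231 with pool RNA. On this Cy5 array the spot was thus close to its background in both channels.

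Plod1 (gene 18822) and Plod3 (gene 26433) encode lysyl hydroxylases; the product of Plod3 can also attach sugars to hydroxylysine. Plod1 lay at -0.12, 0.15, -0.18 and 0.082 in mice 1 to 4, with a mean of -0.017 ± 0.091 (SE, n = 4 mice; limma adjusted p = 0.971). Mice 1 and 3 were below 0 and mice 2 and 4 above. Its spot medians ran from 71 to 330 with knockout RNA and from 110 to 391 with pool RNA, at 1.01 to 1.76 and 0.973 to 1.45 times the background. With all 8 arrays below 2 times the background in both channels, these ratios carry no fold.

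Plod3 gave the narrowest set of values, at -0.019, 0.0057, 0.033 and -0.061 in mice 1 to 4. Its mean was -0.010 ± 0.080 (SE, n = 4 mice; limma adjusted p = 0.980; 95% confidence interval -0.19 to 0.17). Beneath this narrow range the 2 arrays of mouse 1 opposed each other, at 0.40 on the Cy5 array and -0.43 on the Cy3 array. In mice 3 and 4 the spot was flagged on every array and its medians were 0.962 to 1.05 times the background with knockout RNA and 0.963 to 1.03 with pool RNA. The ratios of those mice were thus taken on spots about as bright as their background in both channels.

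P3h2 (gene 210530) encodes a prolyl 3-hydroxylase, an enzyme that modifies proline residues of collagen and is known above all for basement membrane collagen. It lay at -0.040, -0.17, 0.047 and 0.25 in mice 1 to 4. Mice 1 and 2 were below 0 and mice 3 and 4 above, with means of -0.10 and 0.15 in these pairs, whose arrays differ in spot flags. The mean of the 4 mice was 0.022 ± 0.093 (SE, n = 4 mice; limma adjusted p = 0.966; 95% confidence interval -0.19 to 0.23). The signal stayed at 1.12 to 1.48 times the background with knockout RNA and at 1.07 to 1.57 with pool RNA. Between them, the spots of Plod1, Plod3 and P3h2 exceeded 2 times the background once, for Plod3 on the Cy5 array of mouse 1.

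Pcolce (gene 18542) encodes procollagen C-proteinase enhancer, which speeds the removal of the C-terminal propeptide from fibrillar procollagens. It was the brightest of the 7 spots and lay furthest from 0. On the Cy5 arrays its spot medians in mice 1 to 4 were 519, 382, 290 and 232 with knockout RNA, against 483, 420, 268 and 241 with pool RNA. On the Cy3 arrays they were 459, 308, 261 and 280 with knockout RNA, against 600, 390, 354 and 551 with pool RNA. Before background correction and normalization the knockout signal was thus the lower one on all 4 Cy3 arrays and on 2 of 4 Cy5 arrays. This was not particular to Pcolce. The median signal of the whole array was also lower with knockout RNA on all 4 Cy3 arrays and on the Cy5 arrays of mice 1, 2 and 4. Relative to its local background, the Pcolce spot was brighter with knockout RNA on all 4 Cy5 arrays and on the Cy3 array of mouse 2. It was dimmer on the Cy3 arrays of mice 1, 3 and 4. After background correction and normalization, the log2 ratios of mice 1 to 4 were -0.040, -0.23, -0.21 and -0.70. All 4 mice lay below 0, as in 8.98% of all clones, and mouse 4 lay well below the others. The mean was -0.29 ± 0.11 (SE, n = 4 mice; 95% confidence interval -0.55 to -0.039), with an unadjusted limma p of 0.0281 and an adjusted p of 0.585. Both channels were above background together on 2 of 8 arrays, 1 each of mice 1 and 2, and on none of mice 3 and 4, so no fold is given for Pcolce either. The exact two-sided sign-flip test gave p = 0.125, the smallest that 4 mice allow.

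The value of Pcolce was lowest on 1 dye orientation and in 1 mouse. The mean of the Cy5 arrays was -0.032 ± 0.33 and that of the Cy3 arrays -0.56 ± 0.27 (SD, n = 4 arrays each). The Cy5 value was the higher in 4 of 4 mice, as in 14.9% of all clones. Without mouse 4 the mean was -0.16 (limma adjusted p = 0.793), and without mouse 1 it was -0.38. Mice 1 and 2 averaged -0.13 and mice 3 and 4 averaged -0.45. With median centring in place of loess the mean was -0.16. No setting brought it past the threshold, and the smallest adjusted p was 0.220, from the Cy3 arrays alone. The unadjusted limma p ran from 0.00337 on the Cy3 arrays alone to 0.828 on the Cy5 arrays alone. It was 0.00710 without background correction, 0.0524 with print-tip loess, 0.145 with median centring and 0.163 without mouse 4. Whether Pcolce fell under an unadjusted 0.05 thus depended on the setting. On the Cy5 array of mouse 4, 23.8% of all spots exceeded 2 times the background in the knockout channel. In the pool channel 4.65% did, the lowest share of any array in that channel. The Cy3 array of mouse 2 was also uneven, at 35.9% and 8.03%. In mouse 4 Pcolce stood at -0.43 on this Cy5 array and at -0.96 on the Cy3 array, where the shares were 9.28% and 13.7%. The part of such imbalance in the result was not tested.

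**Figure D3:**
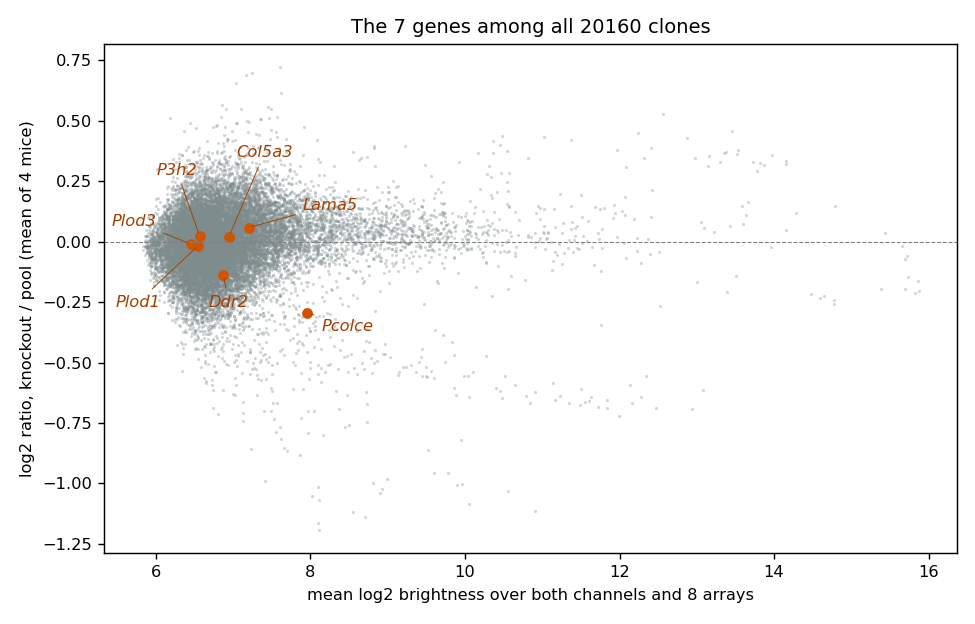
Mean log2 ratio of 4 mice (vertical) against mean log2 brightness (horizontal) for all 20160 clones in grey, with the 7 genes in orange. Among brighter clones most points lie close to 0 and a sparse tail lies lower. Pcolce, at -0.29, sits near the upper edge of that tail. The other 6 genes sit in the dense part, at lower brightness than Pcolce. Of these, Lama5, Col5a3 and Ddr2 ranked above the median brightness, at percentiles 76.4, 63.2 and 57.9.

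Over all clones, 2.87% lay lower than Pcolce. Of the 2016 brightest, the band that holds Pcolce, 174 lay lower, which is 8.63%. By description only, since they were picked for low ratios, these 174 had median log2 ratios of -0.23, -0.63, -0.41 and -0.93 in mice 1 to 4. Mouse 4, the lowest for Pcolce, was the lowest of the 4 mice in 154 of them. How often it was the lowest among the other bright clones was not counted, so no likeness to Pcolce follows. The medians of the 174 clones in the 2 dye orientations were close together, at -0.51 on Cy5 arrays and -0.59 on Cy3 arrays. Pcolce stood at -0.032 and -0.56. Picking clones for a low mean of both orientations favours low values in each, so this contrast is a description too. Pcolce also varied more between mice than 85.9% of these 2016 clones.

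**Figure D4:**
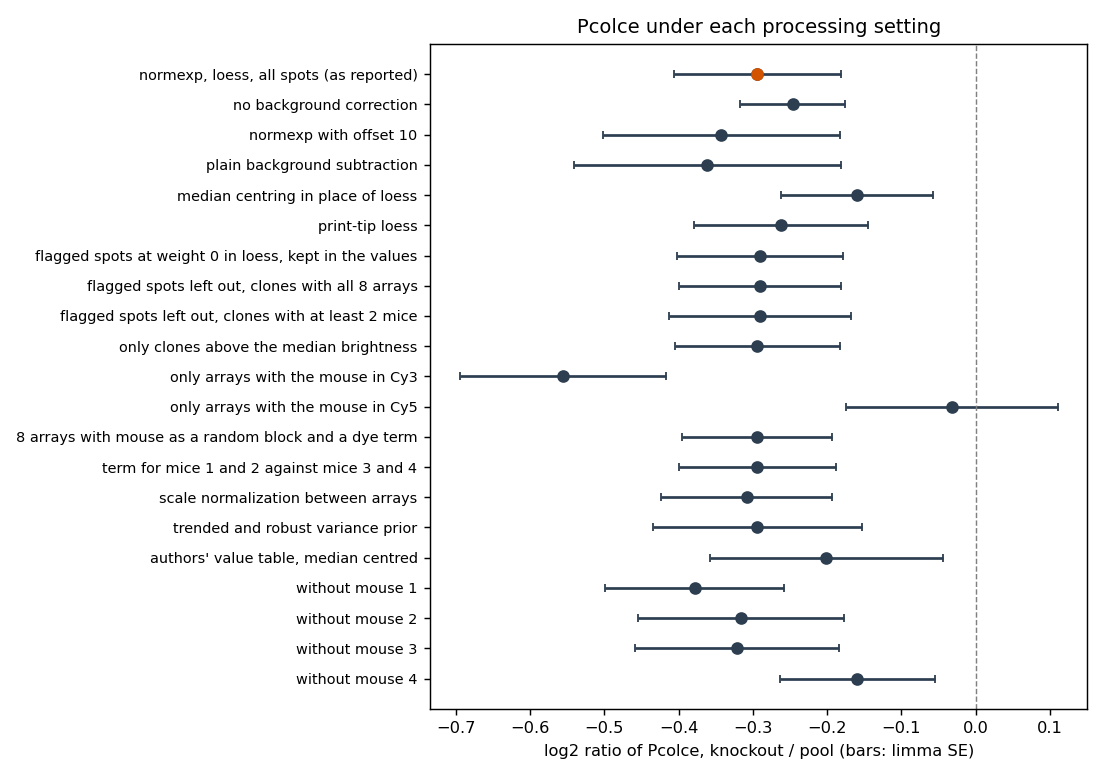
Log2 ratio of Pcolce, knockout over pool, under the reported setting (top, orange) and each alternative, with bars of 1 limma SE. All values lie below 0, from -0.56 on the Cy3 arrays to -0.032 on the Cy5 arrays. Alternatives that leave out 1 mouse or leave the mean unchanged could not have turned the sign.

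Lama5 (gene 16776) encodes the alpha 5 chain of laminin, a chain of the laminins of mature vessel and muscle basement membranes. Its log2 ratios in mice 1 to 4 were 0.24, -0.033, -0.020 and 0.040, so that mouse 1 stood above 3 mice close to 0. The mean was 0.058 ± 0.087 (SE, n = 4 mice; limma adjusted p = 0.885; 95% confidence interval -0.14 to 0.25), and without mouse 1 it was -0.0047. The 2 arrays of mouse 4 lay further apart than for any other of the 7 genes and mice, at 0.80 on the Cy5 array and -0.72 on the Cy3 array. On those arrays the spot medians were 142 with knockout RNA over a background of 56, against 138 with pool RNA over 118, and then 174 over 137 against 292 over 156. In both cases the sample in Cy5 had the higher signal over background. Over all mice the Cy5 arrays averaged 0.37 ± 0.37 and the Cy3 arrays -0.25 ± 0.36 (SD, n = 4 arrays each).

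Ddr2 (gene 18214) encodes discoidin domain receptor 2, a collagen receptor that in heart is known from fibroblasts. It lay at -0.089, 0.066, -0.38 and -0.14 in mice 1 to 4, below 0 in 3 of them and lowest in mouse 3. The mean was -0.14 ± 0.095 (SE, n = 4 mice; limma adjusted p = 0.742; 95% confidence interval -0.35 to 0.078). Without mouse 3 it was -0.055. All 4 Cy5 arrays lay above 0, with a mean of 0.091 ± 0.099, and all 4 Cy3 arrays below, with a mean of -0.36 ± 0.30 (SD, n = 4 arrays each). On the Cy3 array of mouse 3, the lowest, the spot medians were 180 with knockout RNA over a background of 143, against 310 with pool RNA over 170. Mfap5, the other fibroblast marker named on the array out of 14, had a mean of 0.064 ± 0.090 (SE, n = 4 mice), with a limma adjusted p of 0.876.

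The difference between the dye orientations, Cy5 minus Cy3, had a mean above 0 in 7 of 7 genes, against 53.8% of all clones. Mouse by mouse it was above 0 in 4 of 4 mice for Pcolce and Ddr2, in 3 of 4 for Col5a3, Plod1, P3h2 and Lama5, and in 1 of 4 for Plod3, whose mean of 0.088 ± 0.22 (SE, n = 4 mice) rested on mouse 1. It was largest for Lama5, at 0.62 ± 0.26, then for Pcolce, at 0.52 ± 0.17, and for Ddr2, at 0.46 ± 0.18 (SE, n = 4 mice). These 3 had an unadjusted limma p under 0.05, against 21.9% of all clones, and 0 of the 7 passed an adjusted p of 0.05, against 2.59%; the adjusted values were 0.204 for Lama5, 0.130 for Pcolce and 0.179 for Ddr2. For each of these 3 genes the difference between orientations exceeded the mean ratio of the 4 mice in size. The difference spans both orientations and the mean lies midway between them, so these sizes are not on the same scale. None of the 7 genes had 1 sign on all 8 arrays, which 1.28% of clones had.

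The wider pathway was thinly covered. Of 123 other genes in 6 lists of collagen chains, their modification, cleavage, receptors, breakdown and basement membrane, 15 were named on the array. Their median log2 ratio was 0.025, with 9 above 0 and 6 below. In limma 0 of the 15 passed the adjusted threshold and 1 had an unadjusted p under 0.05, Mmp8, which encodes neutrophil collagenase. Mmp8 lay at -0.44, -0.29, -0.19 and -0.17 in mice 1 to 4, with a mean of -0.27 ± 0.087 (SE, n = 4 mice; limma adjusted p = 0.493). It was below 0 on 7 of 8 arrays and nearly equal in both orientations, at -0.28 on Cy5 and -0.27 on Cy3 arrays, but its spot was not above 2 times the background on any array in either channel, and it was flagged on 1. Over 18 alternatives its mean ran from -0.69, in the authors' deposited table, to -0.11 without background correction.

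**Figure D5:**
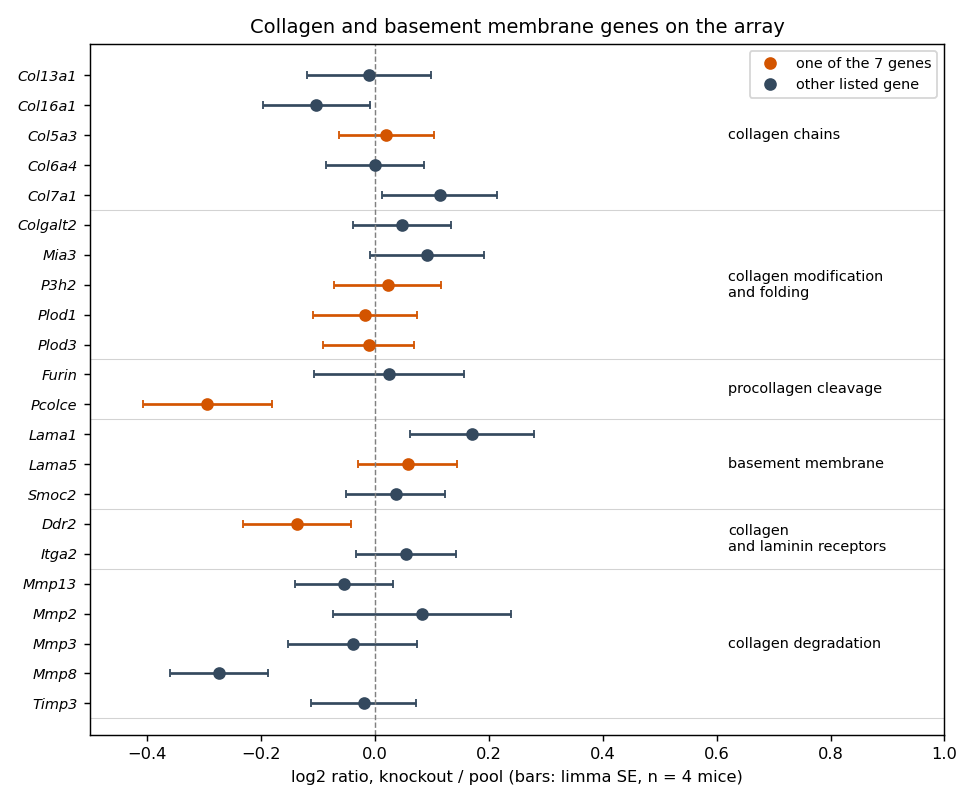
Mean log2 ratio of knockout over pool with limma SE (n = 4 mice) for the 22 named genes of the 6 lists, grouped by role, with the 7 genes in orange. Most intervals cover 0; Pcolce at -0.29 and Mmp8 at -0.27 lie lowest.

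Among the other collagen chains, Col16a1 lay at -0.10 ± 0.094, Col13a1 at -0.010 ± 0.11, Col6a4 at 0.00065 ± 0.086 and Col7a1 at 0.11 ± 0.10 (SE, n = 4 mice). The means of Col16a1 and Col6a4 hid opposed orientations. Col16a1 stood at -0.90 on Cy5 and 0.69 on Cy3 arrays, and Col6a4 at -0.46 and 0.46. On the Cy5 arrays alone Col16a1 passed the limma threshold (adjusted p = 0.0293), with the sign turned on the Cy3 arrays. Of the enzymes and secretion factors, Colgalt2, a collagen galactosyltransferase, lay at 0.047 ± 0.086 and Mia3, which packs procollagen for export, at 0.092 ± 0.10. Furin, a protease that activates procollagen proteinases, lay at 0.025 ± 0.13 and rested on mouse 1, at 0.55, with the other mice between -0.28 and -0.014.

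The other basement membrane genes were Lama1, another laminin chain, at 0.17 ± 0.11, and Smoc2, a matricellular calcium-binding protein, at 0.036 ± 0.086 (SE, n = 4 mice). The Lama1 spot was not above background on any array in either channel and was flagged on 3 of 8. With Lama5, all 3 measured of 30 listed had a mean above 0, against 48.7% of all clones, and 0 passed; Lama5 and Smoc2 lay below 0 in 2 of 20 alternatives each. Itga2, a subunit of a collagen-binding integrin, lay at 0.054 ± 0.088, and its spot, like that of Ddr2, was not above background on any array. Among genes of collagen breakdown, the collagenase gene Mmp13 lay at -0.054 ± 0.086, the gelatinase gene Mmp2 at 0.082 ± 0.16 and the stromelysin gene Mmp3 at -0.039 ± 0.11. Mmp2 was the most variable, at 0.71 in mouse 3 and -0.43 in mouse 2. Flags stood on 4 of 8 arrays for Colgalt2, on 3 for Mmp3, on 2 for Col6a4 and on 1 each for Mmp2, Itga2 and Col7a1. Timp3, an inhibitor of metalloproteinases, was carried by a pair of clones at -0.019 ± 0.093 and 0.023 ± 0.088.

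Likeness between genes was taken as the root mean square difference of log2 ratio over the 8 arrays, which share 1 pool and 2 dye orientations. Among the 7, Col5a3 and P3h2 were the closest pair, at 0.153. Each was also set against the 698 or 699 other named genes whose clone was above the median brightness. Nearest to Col5a3 were Cavin4, a muscle caveolar protein, at 0.0924, Mttp at 0.134 and Gna11 at 0.155, against a median over those genes of 0.374. Nearest to Pcolce were Myorg at 0.180, Gmnn at 0.240 and Golga7b at 0.294, against a median of 0.576. Plod1 was nearest to Lpin1, Zrsr1 and Ckmt1, at 0.102 to 0.129, and Plod3 to Inpp5e, Zfp276 and Stmn2, at 0.139 to 0.177. P3h2 was nearest to Tra2b, Rgs2 and Crhr2, at 0.108 to 0.146, Lama5 to Zdhhc5, Sav1 and Lrrc14b, at 0.198 to 0.222, and Ddr2 to Eya3, Syp and Zfpl1, at 0.151 to 0.185. These are descriptions of array profiles.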

How the data were processed

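Heart RNA of 4 Mfap4 knockout mice was measured on 8 2-colour spotted arrays against a wild-type pool. The deposited scanner values are median pixel intensities of each spot and its local background at 635 nm (Cy5) and 532 nm (Cy3), not normalized, per the file headers; the headers also give the percent of saturated pixels and a spot flag as deposited, 0 or -50. Per the labels, total RNA was copied into cDNA and labelled indirectly. The image software was not given in the sources used here. The authors also deposited a value table, read here as 1 score per spot, made by steps that are not stated. Its row numbers follow the spot order: each column tracked the background-subtracted log2 ratio, knockout over pool (Spearman's rho from 0.998 to 0.999) plus 1 constant of unknown origin. Its median per column, mice 1 to 4, was -0.17, -0.13, -0.31 and -0.59 on Cy5 arrays (knockout in Cy5) and -0.14, 0.024, -0.031 and -0.093 on Cy3 arrays.

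Background was removed by normexp (offset 50), and each array was then normalized by loess (span 0.3) in limma 3.58.1 under R 4.3.3, with equal weight for all spots, flagged ones included. Ratios were turned to knockout over pool, spots of 1 clone and then the 2 arrays of a mouse were averaged, and all 20160 clones were tested with an intercept-only fit and Benjamini-Hochberg adjustment. The dye difference was fitted in the same way. The number of arrays limits the precision, and any deviation of the 1 pool from typical control hearts is shared by all 4 mice. The fit was tried on simulated intensities with larger changes than the ratios here, placed only in brighter clones. That trial does not speak for dim spots or small ratios. Names came from RefSeq's table of assembly GRCm38.p6: 964 spots matched by transcript and 500 by synonym or symbol, while 6312 carry no accession and 12429 did not match. Coordinates are left out because no build is named, and the sequences of the clones were not used here. A gene with several clones was represented by its brightest. The 7 genes were named whatever their values, and of the lists every measured gene; for likeness, the 3 nearest genes each. The bright clones below Pcolce, Tnni2 and Mfap5 were picked after values were seen. The genes and lists were chosen with earlier results of these data known. Alternatives covered background correction, normalization, flags, brightness, dye orientation, the use of 8 arrays (statmod 1.5.0), the pairs of mice, the variance prior, the authors' table (values beyond 20 left out) and each mouse left out. Figures were drawn with matplotlib 3.10.9.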

Additional observations from a re-analysis of the deposited data

How the results depend on the processing

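None of the 7 genes passed an adjusted p of 0.05 in limma under any of the alternatives run, and Pcolce and Mmp8 stayed below 0 in each that gave them a value (18 for Mmp8). Mmp8 ranged from -0.69 to -0.11. Pcolce ranged from -0.56 to -0.032, and from -0.38 to -0.16 with 1 mouse left out. Several of these alternatives could not have turned the sign. Both genes lay below 0 in all 4 mice, so leaving out 1 mouse keeps the mean below 0. The random block, the term for the pairs of mice and the variance prior leave the mean unchanged. The count of all clones past the threshold, 0 as reported, was 288 of 20160 on Cy5 arrays alone (30 higher, 258 lower) and 55 with 8 arrays, mouse as a random block and a dye term (4 higher, 51 lower); the cause was not tested. It was 0 under every other alternative, with 805 to 2546 clones at an unadjusted p under 0.05.

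The other genes changed sign around 0, and the cause was not tested. Without background correction Col5a3 lay at -0.013, Plod1 at 0.0028 and Plod3 at 0.011; with plain subtraction Col5a3 lay at -0.21, with the authors' table at -0.22, and with print-tip loess Plod3 lay at 0.011. On Cy5 arrays alone Plod1 lay at 0.035, Plod3 at 0.034 and Ddr2 at 0.091; on Cy3 arrays alone Col5a3 lay at -0.10, P3h2 at -0.048 and Lama5 at -0.25. With 1 mouse left out, Col5a3 ran from -0.0061 to 0.065, Plod1 from -0.073 to 0.037, Plod3 from -0.025 to 0.0066, P3h2 from -0.053 to 0.085, Lama5 from -0.0047 to 0.088 and Ddr2 from -0.20 to -0.055. Plod1, Plod3, P3h2 and Mmp8 have no value on all 8 arrays once flagged spots are left out, and none among clones above the median brightness. Plod1 and Plod3 also have none with plain subtraction or from the authors' table. Knockout mice could not be paired with single control mice, because each was set against the same pool.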

Other observations

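The clones for Timp3 gave close values mouse by mouse, at -0.026, -0.060, -0.20 and 0.21 in mice 1 to 4 for the brighter clone and -0.026, 0.042, -0.12 and 0.20 for the other. Clones named for Mmp13, a collagenase better known from cartilage and bone, and for Tnni2, a fast skeletal muscle troponin, exceeded 2 times the background in the knockout channel on all 8 arrays, and in the pool channel on 7 and 8. Of the other skeletal muscle markers, Actn3 and Tnnt3 were the measured ones and exceeded it on 0 arrays in either channel. The log2 ratios of Mmp13 and Tnni2 were -0.054 ± 0.086 and -0.025 ± 0.088 (SE, n = 4 mice).

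Of the 174 bright clones lower than Pcolce, 8 carried a gene name, which were Calml3, Cwc25, Gfra1, Hltf, Isg20, Letm1, Mnat1 and Zkscan2. None is on the collagen or basement membrane lists, but those lists hold only 22 of the 1387 genes named on the arrays. With so small a share, this absence says nothing about the low clones. In RefSeq's gene order Pcolce and Plod3 lie on the same chromosome with 22 protein-coding genes between them; their log2 ratios were -0.29 and -0.010.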
